A study of Mus musculus with 12 samples.

Results

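Clustered histone genes are the replication-dependent histone genes that lie side by side in the HIST1, HIST2 and HIST3 clusters of the mouse genome. The members described here are the rows of the deposited count table whose symbol starts with Hist1h, Hist2h, Hist3h or Hist4h and that held a count of 10 or more in any of the 12 libraries. They are 22 of 70 such histone rows and of 54178 gene rows in all. By histone class there were 3 members of H1, 4 of H2A, 8 of H2B, 3 of H3 and 4 of H4. By cluster there were 15 in HIST1 on chromosome 13, 5 in HIST2 on chromosome 3 and 2 in HIST3 on chromosome 11, and the Hist4h4 row stayed under the limit.

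Histones are the proteins that package DNA: H2A, H2B, H3 and H4 form the core of the nucleosome, and H1, the linker histone, binds the DNA where it enters and leaves that core. Most RNA from the clustered genes is made in S phase, when new DNA has to be packaged. Their mRNAs are unusual in ending in a short stem-loop instead of a poly(A) tail, and the stem-loop is bound by Slbp, which acts in cutting, translating and removing the RNA. Some clustered genes are also known to give polyadenylated RNA in cells that no longer divide, and such cells otherwise draw on replication-independent variants such as H3f3a and H3f3b, which encode H3.3-type histone. Most cardiomyocytes of the adult heart no longer divide.

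RNA came from whole hearts of mice in 4 groups of 3 libraries. Flox mice carried CITED4 flox/flox alleles. In KO mice these alleles were combined with aMHC-cre, a transgene driven in cardiomyocytes, so other cell types of the heart are not targeted, and Cited4 encodes a transcriptional co-regulator. All groups share the floxed alleles, and no group carried cre with intact alleles, so loss of Cited4 and the transgene cannot be told apart. Within each genotype the labels give sedentary keeping or voluntary wheel running for 8 weeks; the sources used here give no strain, sex or age. The bracketed code in each title carries a letter that reads the other way (E beside the word sedentary, S beside the word exercise), so groups are named Flox-Sed, Flox-Ex, KO-Sed and KO-Ex after the words and treatments are called labelled sedentary and labelled exercise. If the codes were right, the sign of each treatment comparison and of the interaction would turn, and the genotype comparisons at the sedentary and the exercise label would change places. The libraries were depleted of ribosomal RNA with a RiboZero kit per the labels' protocols, which name no poly(A) selection, so RNA with and without a tail could be counted.

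Library totals ran from 17465432 to 20467300 counts. A floor of 3 counts corresponded to 0.134 to 0.177 CPM, which are counts relative to the TMM-adjusted size of the library, and this floor covers counting error only. Cited4 held 192 to 431 counts in the 6 Flox libraries and 0 to 5 in the 6 KO libraries. Summed over 8 genes, cardiomyocyte markers, not all of them particular to the ventricle, stood at 46381 to 66379 CPM, so the heart label was borne out in all libraries. Summed over 6 genes, atrial markers stood at 204.5, 220.2 and 3995 CPM in Flox-Sed, 144.3, 4596 and 143.7 in Flox-Ex, 1491, 10804 and 21033 in KO-Sed and 3251, 169.2 and 3034 in KO-Ex (replicates 1, 2 and 3 in each). Lymphocyte markers summed to at most 3.44 CPM and neutrophil markers to at most 2.56 CPM. Prm1 was seen in 1 library at 0.0525 CPM, and Prm2, Tnp1 and Tnp2, the other sperm chromatin genes, were at 0 throughout.

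The stem-loop letters lie just after the stop codon in most members and are shown because they are the known end of the tail-less form of histone mRNA. The motif searched was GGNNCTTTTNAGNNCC, where N is any base, on the sense strand of transcripts in GENCODE M21 (build GRCm38). For members the longest protein-coding transcript was searched, and for the share over all protein-coding genes every protein-coding transcript. In the sequences below, written as DNA and 5′ to 3′, capitals mark the stem-loop.
Hist1h1c: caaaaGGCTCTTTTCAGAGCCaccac
Hist2h2aa2: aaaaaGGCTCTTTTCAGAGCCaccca
Hist3h2a: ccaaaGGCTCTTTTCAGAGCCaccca
Hist1h4h: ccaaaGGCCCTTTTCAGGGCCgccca
Hist1h4i: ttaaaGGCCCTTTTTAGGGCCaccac
Hist1h3f: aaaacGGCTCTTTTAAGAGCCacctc
On GRCm38 these lie at chr13:23739507-23739532 on the + strand (Hist1h1c), chr3:96239779-96239804 on the - strand (Hist2h2aa2), chr11:58955167-58955192 on the + strand (Hist3h2a), chr13:23531453-23531478 on the + strand (Hist1h4h), chr13:22040961-22040986 on the - strand (Hist1h4i) and chr13:23544927-23544952 on the + strand (Hist1h3f). The motif was found in 18 of 22 members. With a match in any transcript counted, it was found in 72 of 21877 protein-coding genes (0.329%). It came in 4 forms among the members. The form printed for Hist1h1c was held by 13 members, which cover H1, H2A, H2B and H3. The forms printed for Hist1h4h and Hist1h4i were each held by 2 members, all 4 of them H4 genes (Hist1h4d and Hist2h4 being the others), and the form printed for Hist1h3f by that gene alone.

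The motif started 25 to 59 bases after the stop codon. The annotated models ran on for 35 to 4884 bases past it. The 4 members without these letters in the longest transcript were all H2B genes: Hist1h2bc, Hist1h2bq, Hist1h2br and Hist2h2be. The poly(A) signal letters AATAAA stood within the last 40 bases of the transcript in 7 of 22 members, namely Hist1h1c, Hist1h2bq, Hist1h2br, Hist2h2be, Hist2h4, Hist3h2a and Hist3h2ba. The share of protein-coding genes with these letters near the end of any transcript was 64.1%. That share is not on a like basis, since only the longest transcript was searched for members. Both kinds of letters were held by 4 members: Hist1h1c, Hist2h4, Hist3h2a and Hist3h2ba. A match is a description of the annotated letters and says nothing of which ends were used in these hearts.

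**Figure D1:**
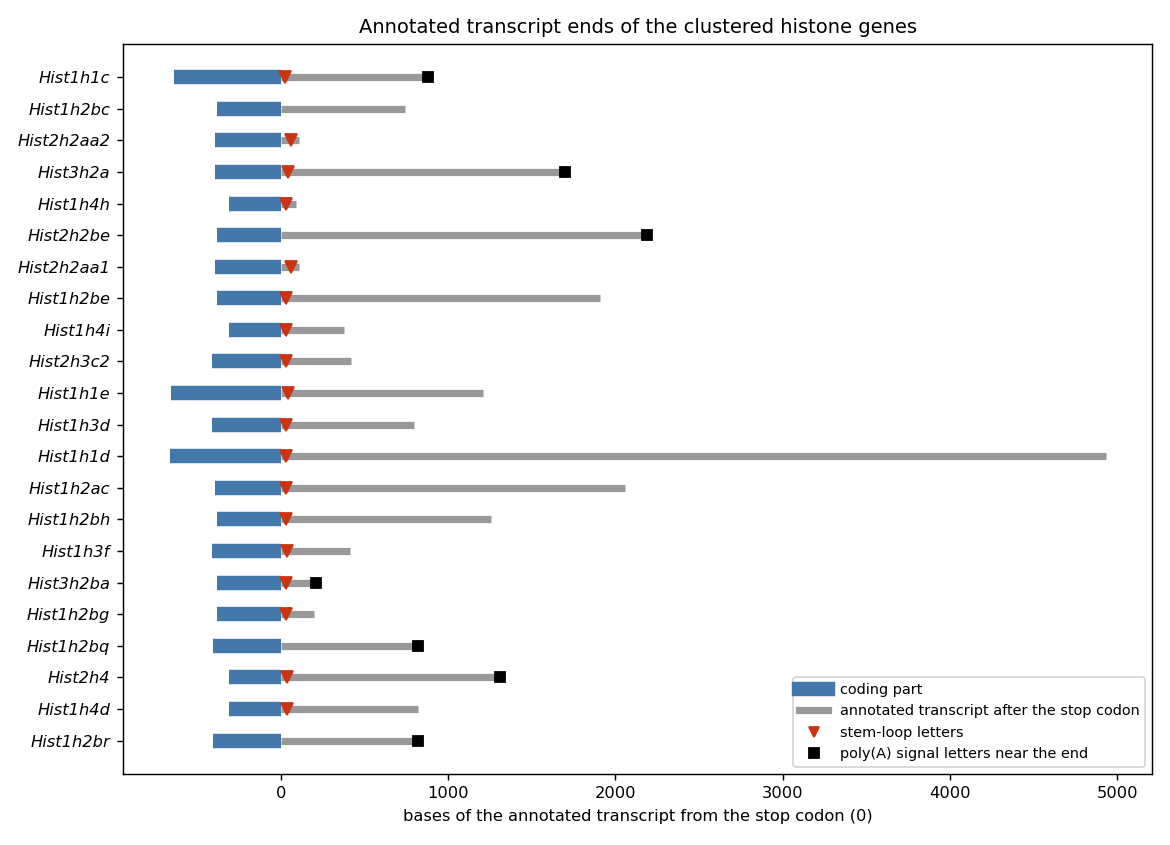
Annotated transcripts of the 22 members aligned at the stop codon (x axis, bases from the stop codon; blue, coding part; grey, transcript after the stop codon). Red triangles mark stem-loop letters, found in 18 members, and black squares mark AATAAA near the transcript end, found in 7.

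Clustered histone RNA was present in all 4 groups at summed levels that overlapped. The 22 members together stood at 236, 195 and 182 CPM in Flox-Sed, 213, 220 and 215 in Flox-Ex, 201, 213 and 218 in KO-Sed and 224, 255 and 211 in KO-Ex. The ranges overlapped in each pairwise comparison of 2 groups, and Flox-Sed alone spanned from the lowest library of the 12 to the second highest. The group means were 204 ± 28.2, 216 ± 3.61, 211 ± 9.03 and 230 ± 22.6 CPM in the same order (SD, n = 3 each). In bulk hearts, fewer cells of a type and less RNA per cell cannot be told apart. The 48 histone rows under the limit, 8 of them at 0 in all libraries, held 0.967% of all clustered histone counts. Hist1h1t, the testis linker histone, held 2 counts in all 12 libraries together, and Hist1h2aa and Hist1h2ba, testis forms of H2A and H2B, held 0.

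A few genes gave nearly all of this RNA. Hist1h1c made up 34.4% of the members' mean CPM and Hist1h2bc 26.7%, followed by Hist2h2aa2 with 11.2%, Hist3h2a with 7.59%, Hist1h4h with 6.14%, Hist2h2be with 4.36%, Hist2h2aa1 with 3.29% and Hist1h2be with 2.03%. These 8 members held 95.6%, and the other 14 shared 4.37%. On average 5 members stood over 10 CPM and 11 over 1 CPM. By class, H1 took 35.3%, H2A 22.3%, H2B 33.7%, H4 7.40% and H3 1.24%. These shares are of counts and are not corrected for transcript length.

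**Figure D2:**
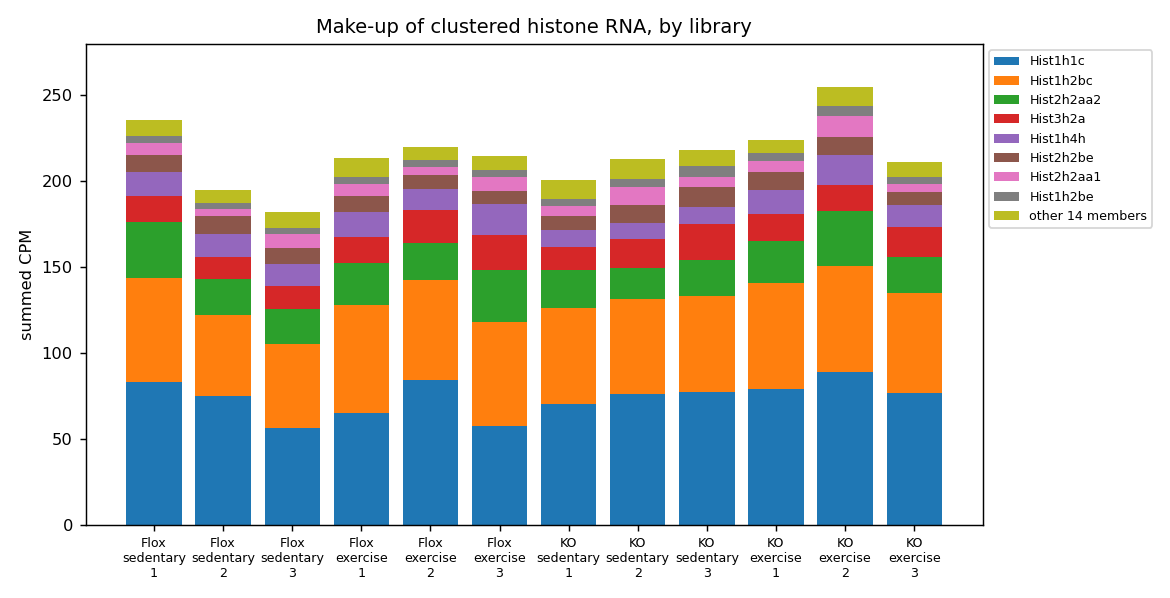
Summed CPM of the 22 members in each of the 12 libraries (y axis, CPM; x axis, library), with the 8 most abundant members in colour and the other 14 together. Hist1h1c and Hist1h2bc form the lower part of every bar, and the bars end between 182 and 255 CPM.

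Per kilobase of annotated transcript, the order at the top was close: Hist1h2bc stood at 49.6 CPM per kb, Hist1h1c at 47.4 and Hist2h2aa2 at 45.6. Hist1h4h followed at 28.1 CPM per kb, Hist2h2aa1 at 12.1, Hist3h2a at 7.61, Hist2h2be at 3.58 and Hist1h4i at 3.17. No H3 member exceeded 1.75 CPM per kb, the level of Hist2h3c2. The scale matters for genes with long annotated ends: per kilobase of coding sequence, Hist3h2a stood at 41.9 CPM per kb beside Hist1h4h at 42.8, and Hist1h2bc led at 152 over Hist1h1c at 116. Among replication-independent variants, H3f3a stood at 72.2 and H3f3b at 45.2 CPM per kb of transcript, H1f0, the linker variant of resting cells, at 53.7 and H2afz at 41.7. These are the highest of the variants listed, and the others stood between 1.06 (H1fx) and 28.7 CPM per kb (Cenpa). Clustered H1, H2A and H2B were thus each led by a gene in the range of the highest variants per kilobase of transcript. For H2A this rests on Hist2h2aa2, whose sequence is wholly shared with other annotated genes, so its split from Hist2h2aa1 is uncertain. The variants were not scaled by coding length. Every clustered H3 gene was far below H3f3a and H3f3b. All 12 H3 rows of the clusters together summed to 2.41 to 5.19 CPM in a library.

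Among the clustered H1 genes nearly all RNA came from Hist1h1c, and outside the clusters H1f0 stood at 53.7 CPM per kb of transcript beside its 47.4. Hist1h1c stood at 83.0, 75.0 and 56.2 CPM in Flox-Sed, 65.1, 84.1 and 57.6 in Flox-Ex, 70.0, 75.8 and 77.1 in KO-Sed and 78.7, 88.8 and 76.8 in KO-Ex. The lowest and the second lowest libraries were both Flox and the highest was KO-Ex 2, with overlap between all groups compared. Averaged over treatment, its log2 difference of KO over Flox was 0.15 (95% interval -0.09 to 0.39; edgeR, adjusted p = 0.633), and that of labelled exercise over labelled sedentary was 0.04 (-0.19 to 0.28; adjusted p = 0.941). The gene spans chr13:23738808-23740367 and has 1 exon.

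The remaining H1 members, Hist1h1e and Hist1h1d, both somatic linker histones, stood at 0.822 and 0.0727 CPM per kb of transcript, far below Hist1h1c. The Hist1h1d model runs on for 4884 bases past the stem-loop. Per kilobase of coding sequence they stood at 2.415 and 0.814 CPM per kb, against 116 for Hist1h1c. Hist1h1e overlaps Hist1h2be on the same strand, and 24.5% of its 31-base words occur in that gene. Hist1h1e ranged from 0.867 to 2.41 CPM, with all groups overlapping. Hist1h1d stood at 0.709, 0.840 and 0.404 CPM in Flox-Sed, 0.342, 0.210 and 0.277 in Flox-Ex, 1.01, 0.850 and 0.320 in KO-Sed and 0.412, 0.723 and 0.373 in KO-Ex. The 3 Flox-Ex libraries lay below those of Flox-Sed and of KO-Ex, with 15 counts against 36 in Flox-Sed (ratio of the sedentary to the exercise label 2.35, exact 95% interval 1.25 to 4.62, counting error only). The fitted log2 difference of labelled exercise over labelled sedentary in Flox was -1.22 ± 0.54 (SE) and did not pass (edgeR, adjusted p = 0.653). For KO over Flox at the exercise label it was 0.85 ± 0.55 (adjusted p = 0.716).

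Among the clustered H2A genes most RNA came from the neighbouring pair Hist2h2aa1 and Hist2h2aa2 of HIST2 and from Hist3h2a. Hist2h2aa2 stood at 32.7, 21.05 and 20.3 CPM in Flox-Sed, 24.7, 21.6 and 30.5 in Flox-Ex, 21.7, 17.8 and 20.98 in KO-Sed and 24.4, 31.9 and 21.2 in KO-Ex. Hist2h2aa1 stood at 7.10, 4.30 and 8.03, at 7.21, 4.63 and 8.42, at 5.80, 10.4 and 5.80 and at 6.76, 12.1 and 4.61 CPM in the same order. For Hist2h2aa2 the 3 KO-Sed libraries lay between 17.8 and 21.7 CPM while each other group reached 30.5 or more, yet no 2 groups compared were apart for either gene. Of the 31-base words of Hist2h2aa2 transcripts, 100% also occur in another annotated gene's transcripts, and of those of Hist2h2aa1 89.8%, so the split between them is uncertain. Their sum ran from 25.3 CPM (Flox-Sed 2) to 44.0 CPM (KO-Ex 2). The shared words of both lie in Gm20634, a gene that overlaps Hist2h2aa1 and stood at 1.53 to 4.70 CPM. Gm20632, antisense to Hist2h2aa2, stood at 2.25 to 5.01 CPM and Gm20633, antisense to Hist2h2aa1, at 0 to 1.44 CPM, and no source used here gives the strand setting of the counting. The largest log2 difference of Hist2h2aa2 was 0.36 ± 0.20 for labelled exercise over labelled sedentary in KO (edgeR, adjusted p = 0.542).

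Hist3h2a, at chr11:58954685-58956830, stood at 15.3, 12.6 and 13.7 CPM in Flox-Sed, 14.8, 19.2 and 20.1 in Flox-Ex, 13.5, 16.7 and 20.97 in KO-Sed and 16.0, 15.4 and 17.7 in KO-Ex. Flox-Sed held the lowest library, yet its highest value lay above the lowest of Flox-Ex and of KO-Sed. The log2 difference of labelled exercise over labelled sedentary in Flox was 0.38 ± 0.16 (edgeR, adjusted p = 0.631). At the sedentary label KO over Flox was 0.30 ± 0.16 (adjusted p = 0.436), and the interaction, the exercise difference in KO minus that in Flox, was -0.44 ± 0.23 (adjusted p = 0.530). The gene overlaps Trim17, which holds the 32.1% of its words that are shared and stood at 0.258 to 1.02 CPM. Hist1h2ac, the fourth H2A member, ranged from 0.213 to 0.867 CPM.

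Clustered H2B RNA was led by Hist1h2bc, the steadiest member, with a coefficient of variation of 8.62% over the 12 libraries. Hist1h2bc stood at 60.6, 47.2 and 49.1 CPM in Flox-Sed, 62.9, 58.6 and 60.4 in Flox-Ex, 56.4, 55.9 and 56.1 in KO-Sed and 62.1, 61.7 and 57.8 in KO-Ex. In KO all 3 labelled exercise libraries lay above the labelled sedentary ones, by a small margin, while in Flox the groups overlapped through Flox-Sed 1. Averaged over genotype the log2 difference was 0.16 ± 0.07 (edgeR, adjusted p = 0.575), and KO over Flox averaged over treatment was 0.05 (95% interval -0.10 to 0.20; adjusted p = 0.833). The gene spans chr13:23684199-23692908 with 2 exons in its model, and it lacks the stem-loop letters in that model.

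Hist2h2be and Hist1h2be were the next H2B members. Hist2h2be, whose model ends in poly(A) signal letters and lacks the stem-loop letters, stood at 9.80, 10.5 and 9.29 CPM in Flox-Sed, 9.01, 8.31 and 7.31 in Flox-Ex, 8.47, 10.5 and 11.5 in KO-Sed and 10.3, 10.5 and 7.20 in KO-Ex. All 3 Flox-Ex libraries lay below the Flox-Sed ones (log2 difference -0.26 ± 0.17; edgeR, adjusted p = 0.760), and only 2.82% of its words are shared with other genes. Hist1h2be stood at 4.16, 3.42 and 3.83, at 4.04, 4.14 and 3.92, at 3.81, 4.70 and 6.08 and at 4.42, 5.55 and 4.41 CPM in the same order. At the exercise label its 3 KO libraries lay above the 3 Flox libraries, and at the sedentary label the groups overlapped. Averaged over treatment KO over Flox was 0.30 ± 0.14 on the log2 scale (edgeR, adjusted p = 0.429).

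The other 5 H2B members stood below 1 CPM in all libraries. Among them Hist1h2bq and Hist1h2br show how far near-identical copies limit a gene-level value, since 98.3% of the words of Hist1h2bq occur in Hist1h2br. In Flox-Sed Hist1h2bq stood at 0.451, 0.420 and 0.556 CPM and Hist1h2br at 0.0838, 0 and 0. In KO-Sed the order was turned, with Hist1h2bq at 0.204, 0.180 and 0.0946 CPM and Hist1h2br at 0.376, 0.315 and 0.729. The sum of both overlapped between these groups, at 0.535, 0.420 and 0.556 against 0.581, 0.495 and 0.823 CPM. By treatment label the sum did not overlap in either genotype. It was lower in Flox-Ex, at 0.171, 0.263 and 0.278 CPM, and in KO-Ex, at 0.465, 0.207 and 0.239 CPM. Of all tested genes 14.1% were apart in this way for treatment in Flox and 13.1% in KO. The sum rests on 3.01 to 18.0 counts a library and was not tested. Neither gene passed the filter on low counts.

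H3 held the least summed CPM of the 5 classes. Hist2h3c2, its most abundant member, stood at 1.83, 0.938 and 1.54 CPM in Flox-Sed, 3.82, 1.51 and 1.42 in Flox-Ex, 2.44, 1.90 and 1.30 in KO-Sed and 0.986, 2.52 and 1.23 in KO-Ex. Flox-Ex 1 was the highest library and all groups overlapped. Of the gene's words 64.2% are shared, and all of these occur in Gm20634, which stood at 1.53 to 4.70 CPM. The split between Hist2h3c2 and Gm20634 is thus uncertain. Hist1h3d stood at 0.401, 0.128 and 0.428, at 0.456, 0.831 and 0.399, at 0.766, 0.434 and 1.05 and at 0.464, 0.823 and 0.755 CPM in the same order. At the sedentary label the KO libraries lay above the Flox libraries, the nearest pair being 0.434 and 0.428 CPM, with 49 counts in all against 17 (ratio 2.48, exact 95% interval 1.40 to 4.58, counting error only). The log2 difference of 1.29 ± 0.54 did not pass (edgeR, adjusted p = 0.326).

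Hist1h3f, which carries its own form of the stem-loop, varied most of the tested members, with a coefficient of variation of 84.9%. It stood at 0.0646, 0.387 and 0.715 CPM in Flox-Sed, 0, 0 and 0.0865 in Flox-Ex, 0.507, 0.237 and 0.320 in KO-Sed and 0.543, 0.723 and 0.150 in KO-Ex. The 3 Flox-Ex libraries held 2 counts in all (rounded estimates), and each KO-Ex library lay above them. Those KO libraries held 28 counts, a ratio of 13.3 (exact 95% interval 3.35 to 115, counting error only), and the 22 counts of Flox-Sed gave a ratio of 10.8 (2.65 to 94.4). Neither difference passed the test across genes (edgeR, adjusted p = 0.601 for KO over Flox at the exercise label and 0.562 for the treatment in Flox), nor did the interaction (adjusted p = 0.462). The fitted log2 difference of KO over Flox at the exercise label was 3.51 and ran from 2.98 to 6.26 over the left-out libraries, and that of the treatment in Flox was -3.18 and ran from -5.93 to -2.38. Flox-Ex 3 held all counts of its group, and the values farthest from 0 are those without it, where the group is at 0 and the fit depends on its prior count. Of the gene's words 55.2% are shared, mostly with Hist1h3e, which at 9 counts or fewer lay just under the limit. Hist1h3e stood at 0.231, 0.158 and 0.295 CPM in Flox-Sed and 0.456, 0.105 and 0 in Flox-Ex. In KO-Sed it stood at 0.265, 0.403 and 0.183 CPM and in KO-Ex at 0.282, 0.258 and 0.0533. Flox-Ex 1 held 8 counts of Hist1h3e and 0 of Hist1h3f. The split between both genes is uncertain, and the exact intervals above do not cover it.

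Clustered H4 RNA came mainly from Hist1h4h, and this gene had the smallest p of all members in 3 of the 7 comparisons. Hist1h4h, at chr13:23531050-23531519 with 1 exon, stood at 13.9, 13.4 and 12.5 CPM in Flox-Sed, 14.7, 11.9 and 18.3 in Flox-Ex, 9.94, 9.62 and 10.1 in KO-Sed and 13.8, 17.6 and 12.7 in KO-Ex. The 3 KO-Sed libraries were the lowest of the 12 and did not overlap with any other group. Of all tested genes 18.4% were apart for genotype at the sedentary label and 13.1% for treatment in KO. The share with a group apart from all others was not counted. The log2 difference of labelled exercise over labelled sedentary in KO was 0.57 ± 0.16 (95% interval 0.23 to 0.91; edgeR, adjusted p = 0.288), the 156th smallest p of 15226 genes. KO over Flox at the sedentary label was -0.42 ± 0.16 (-0.76 to -0.08; adjusted p = 0.269). At the exercise label the genotypes overlapped (-0.03, interval -0.36 to 0.31; adjusted p = 0.975). Labelled exercise over labelled sedentary averaged over genotype was 0.37 ± 0.11 (adjusted p = 0.473), and the interaction was 0.40 ± 0.22 (adjusted p = 0.553). None of these passed.

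Atrial and adipocyte markers differed between libraries alongside Hist1h4h. KO-Sed, where the gene was lowest, held the 2 libraries with the highest atrial sums (10804 and 21033 CPM). In each of the other 3 groups the library with the lowest atrial sum had the highest Hist1h4h level: Flox-Sed 1 with 204.5 and 13.9 CPM, Flox-Ex 3 with 143.7 and 18.3 CPM, and KO-Ex 2 with 169.2 and 17.6 CPM. Within KO-Sed the order was the other way, the highest atrial sum (KO-Sed 3) going with the highest Hist1h4h level of 10.1 CPM. KO-Sed 1, at an atrial sum of 1491 CPM, had less Hist1h4h (9.94 CPM) than Flox-Sed 3, Flox-Ex 2 and KO-Ex 1, whose atrial sums were 3995, 4596 and 3251 CPM. By the mean log2 CPM of the atrial markers the order differed, with KO-Sed 1 at 6.96 and Flox-Sed 3 at 6.69. Lowest of their groups by that mean were Flox-Sed 2 (-0.53), Flox-Ex 1 (-0.42) and KO-Ex 2 (-0.40). Of these only KO-Ex 2 had the highest Hist1h4h level of its group. When the mean of the atrial markers entered the fit as a covariate, the sedentary-label genotype difference of Hist1h4h was -0.15 (edgeR, adjusted p = 0.999) and the treatment difference in KO 0.39 (adjusted p = 0.697). Of 5 adipocyte markers, Adipoq, Cidec, Plin1 and Cfd were each higher in the 3 KO-Sed libraries than in the other 9, and summed to 47.9, 61.9 and 89.7 CPM there against 0.656 to 11.97 CPM elsewhere. The remaining one, Fabp4, which endothelial cells also express, overlapped, and the sum of all 5 was 455, 548 and 602 CPM in KO-Sed against 334 to 714 CPM. These values stand beside every comparison that uses KO-Sed. The atrial covariate was 6.96, 10.1 and 10.8 in KO-Sed against 0.0018, -0.53 and 6.69 in Flox-Sed. Covariate and group are thus largely confounded, and the fit above does not tell them apart. The parts of atrial and of adipose tissue were not tested. Shared sequence is a further limit, with 50.0% of the gene's 31-base words found in other genes, Hist1h4j first.

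The other H4 members were lower, Hist1h4i at 3.17 against 28.1 CPM per kb of transcript for Hist1h4h. Hist1h4i stood at 2.54, 1.58 and 1.87 CPM in Flox-Sed, 2.06, 1.68 and 2.49 in Flox-Ex, 2.99, 3.18 and 2.10 in KO-Sed and 1.91, 2.27 and 2.99 in KO-Ex, with overlap between all groups. Hist2h4 stood at 0.177, 0 and 0.0505, at 0.570, 0.473 and 0.388, at 0.0482, 0.224 and 0.228 and at 0.103, 0.207 and 0.213 CPM in the same order. Its Flox-Ex libraries were the 3 highest, at 10, 9 and 7 counts, and the gene was under the filter and not tested. Among tested genes 14.1% were apart for treatment in Flox and 14.8% for genotype at the exercise label. Hist2h4 and Hist1h4d were the members just inside the limit, each reaching 10 counts in 1 library, and just outside lay Hist1h3e with at most 9 and Hist1h4c with at most 7.03 estimated counts. Hist1h4d ranged from 0 to 0.570 CPM.

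**Figure D3:**
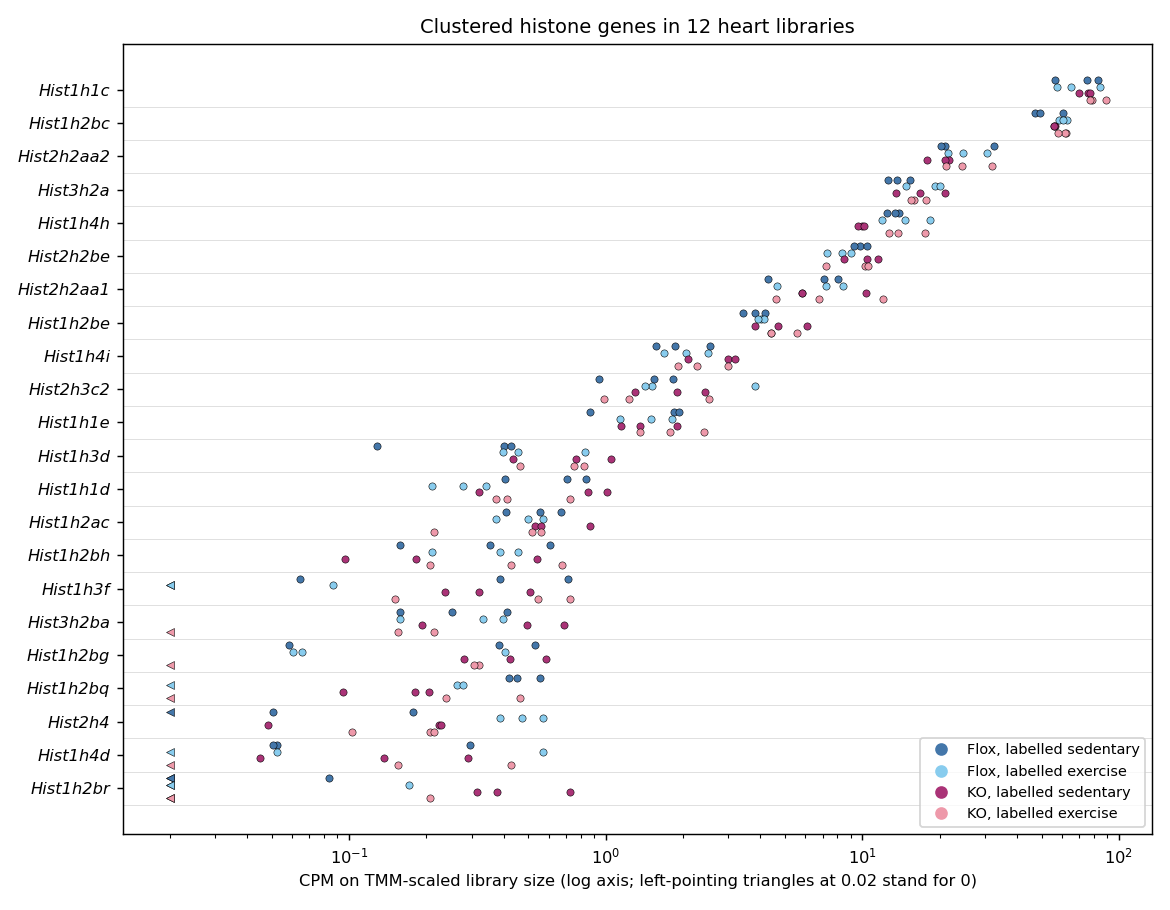
CPM of each of the 22 members in the 12 libraries (x axis, log scale; left-pointing triangles stand for 0), coloured by group. Hist1h4h in KO-Sed (9.62 to 10.1 CPM) lies left of the other groups, and most other members have mixed colours.

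Across the whole table, no member passed in any of the 7 comparisons. Of the 22 members 17 passed the filter on low counts, and Hist1h2bq, Hist1h2br, Hist1h4d, Hist2h4 and Hist3h2ba did not. For labelled exercise over labelled sedentary in Flox, edgeR called 0 of 17 members, and 0% of all 15226 genes were called. Unadjusted p-values were under 0.05 for 3 members, against 7.41% of all genes. For the same treatment comparison in KO, 0 members were called, and 0.0197% of all genes. There 1 member, Hist1h4h, had an unadjusted p under 0.05, against 10.6% of all genes.

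For KO over Flox at the sedentary label, edgeR called 0 of 17 members, and 0.125% of all genes. Hist1h4h and Hist1h3d had an unadjusted p under 0.05, 2 members against 13.5% of all genes. At the exercise label 0 members were called, and 0.00657% of all genes, with 1 member, Hist1h3f, under an unadjusted 0.05 against 7.94% of genes. For the interaction 0 members and 0% of all genes were called, and 1 member against 9.88% of genes had an unadjusted p under 0.05. KO over Flox averaged over treatment called 0 members and 0.0525% of genes (2 members against 11.6% unadjusted), and the treatment averaged over genotype called 0 members and 0.0263% of genes (3 members against 8.45% unadjusted). DESeq2 also called 0 members in each of the 7 comparisons, with 1 to 3 members under an unadjusted 0.05. Of all genes DESeq2 called more than edgeR: 0.322% for treatment in Flox, 0.795% for treatment in KO, 2.59% for genotype at the sedentary label, 0.0657% at the exercise label, 0.328% for the interaction, 1.13% for genotype averaged over treatment and 0.335% for treatment averaged over genotype. In the same order, its unadjusted p was under 0.05 for 7.47%, 11.3%, 14.1%, 7.9%, 10.4%, 12.1% and 8.47% of all genes.

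Groups that did not overlap were about as frequent among the members as among all genes. For treatment in Flox, 2 of 17 members (Hist1h1d and Hist2h2be, lower with the exercise label) were apart, against 14.1% of all genes. For treatment in KO, 2 members (Hist1h4h and Hist1h2bc, higher) were apart, against 13.1%. For genotype at the sedentary label 2 members (Hist1h3d higher, Hist1h4h lower) were apart, against 18.4%, and at the exercise label 3 members (Hist1h3f, Hist1h1d and Hist1h2be, higher in KO) against 14.8%. The members' median log2 difference was 0.06 for treatment in Flox, -0.02 for treatment in KO, 0.16 for genotype at the sedentary label and 0.22 at the exercise label, where the medians of all genes lay between -0.01 and 0.01. The comparisons share groups, so these values are not independent of each other.

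**Figure D4:**
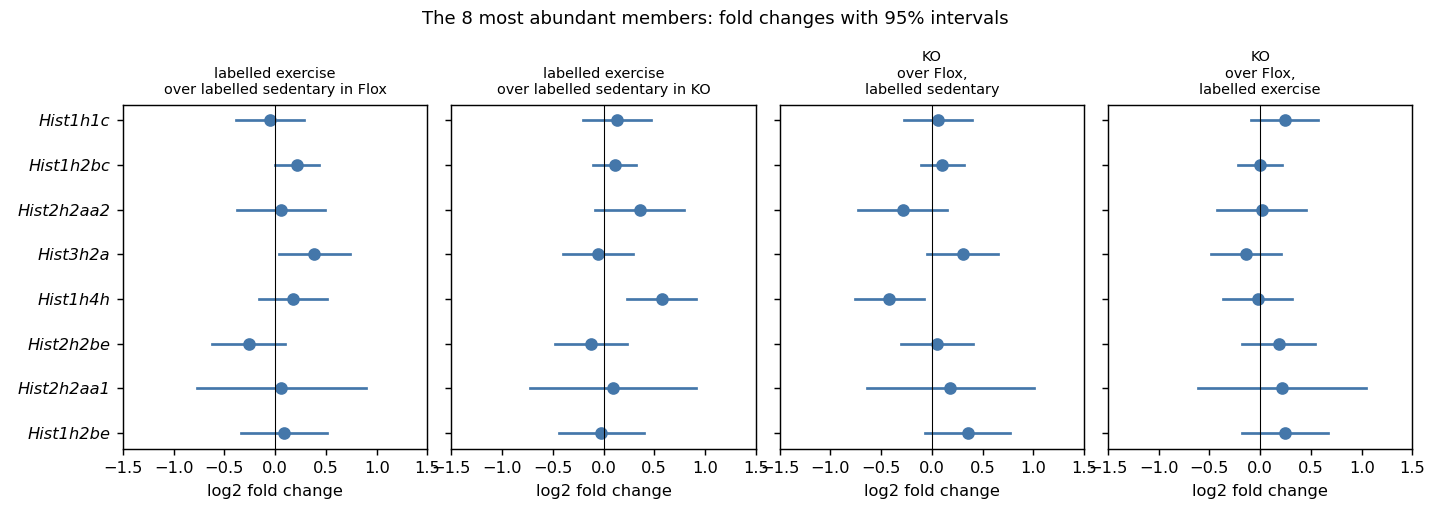
Log2 fold changes (x axis) of the 8 most abundant members with 95% intervals from edgeR, in 4 panels for the 4 pairwise comparisons. The interval of Hist1h4h lies above 0 for treatment in KO (0.23 to 0.91) and below 0 for genotype at the sedentary label (-0.76 to -0.08), and neither passed after adjustment over all genes.

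Single libraries stood out across members. KO-Sed 3 was the highest library for 6 of the 17 tested members, against 15.3% of all tested genes. It was the lowest for 0 members, against 14.3% of all tested genes. KO-Ex 2 was the highest for 5 members, among them Hist1h1c, Hist2h2aa1 and Hist1h1e, against 8.12% of all genes. Flox-Sed 2 was the lowest for 7 members, Hist1h2bc, Hist1h2be and Hist1h3d included, against 8.68% of all genes. These libraries are the most extreme of the 12, and members that share sequence are not independent in such counts. The counts are a description and carry no test.

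Genes that act on histone RNA and protein showed no called difference either. The lists compared were 11 replication-independent variants, 17 genes of histone RNA transcription and processing (16 of them tested), 16 histone chaperones, 21 DNA replication genes and 14 genes of G2 and mitosis, and 0 members of any list passed in any of the 7 comparisons (edgeR). In each list 0 to 2 genes had an unadjusted p under 0.05 in a comparison, and DESeq2 also called 0, with 0 to 3 genes under an unadjusted 0.05, where it called 0.0657% to 2.59% of all genes. Their medians for treatment in Flox were 0.06, -0.03, 0.02, 0.06 and 0.76 on the log2 scale, in this order, beside 0.01 for all genes. Among variants, Cenpa, the centromeric H3, had a log2 difference of -0.20 ± 0.07 for KO over Flox averaged over treatment (edgeR, adjusted p = 0.312) and H2afx, the variant phosphorylated at DNA breaks, -0.25 ± 0.11 (adjusted p = 0.390). Cstf2, a subunit of the cleavage machinery, stood at -0.22 ± 0.08 in that comparison (adjusted p = 0.323), and Daxx, a chaperone of H3.3-type histone, at -0.20 ± 0.08 (adjusted p = 0.353). Asf1b, a chaperone of H3 and H4, stood at 0.52 ± 0.27 for treatment averaged over genotype (adjusted p = 0.635).

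Slbp, which binds the stem-loop printed above, stood at 10.2, 9.72 and 11.6 CPM in Flox-Sed, 14.3, 14.2 and 15.02 in Flox-Ex, 11.97, 13.6 and 13.4 in KO-Sed and 9.79, 11.4 and 12.3 in KO-Ex. The 3 Flox-Ex libraries were the highest of the 12 and overlapped with no other group. Of all tested genes 14.1% were apart for treatment in Flox and 14.8% for genotype at the exercise label. The log2 difference of treatment in Flox was 0.47 ± 0.12 (edgeR, adjusted p = 0.456), that of KO over Flox at the exercise label -0.38 ± 0.12 (adjusted p = 0.601) and the interaction -0.69 ± 0.17 (adjusted p = 0.379), and none passed. The summed clustered histone RNA of these groups stood at 204 ± 28.2 CPM in Flox-Sed and 216 ± 3.61 in Flox-Ex.

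Genes of cell division varied between libraries of a group. The 14 G2 and mitosis genes, of which Cenpf, a kinetochore protein, held the most CPM in every library, summed to 52.3, 49.1 and 27.5 CPM in Flox-Sed, 43.8, 80.0 and 34.2 in Flox-Ex, 41.5, 34.6 and 27.9 in KO-Sed and 61.5, 44.3 and 47.6 in KO-Ex. Without Cenpf, left out after the values were seen, the sums were 27.7, 14.1 and 16.1, 16.8, 52.6 and 25.2, 17.4, 23.2 and 18.9, and 19.6, 12.9 and 34.1 CPM. Flox-Ex 2 was the highest either way, the second highest was KO-Ex 1 with Cenpf and KO-Ex 3 without, and the groups overlapped for treatment in Flox. Macrophage markers summed to 122, 123 and 133 CPM in Flox-Sed, 119, 250 and 166 in Flox-Ex, 135, 194 and 192 in KO-Sed and 130, 141 and 224 in KO-Ex, the highest being Flox-Ex 2 and then KO-Ex 3. Fibroblast markers summed to 703 to 769 CPM in Flox-Sed and to 815 to 1263 in Flox-Ex, with 1263 in Flox-Ex 2 and 1328 in KO-Ex 3, and the part of either cell type was not tested. For treatment in Flox 13 of the 14 G2 and mitosis genes had a log2 difference above 0, against 51.4% of all genes. Cdk1, the kinase that starts mitosis, stood at 1.27 ± 0.52 (edgeR, adjusted p = 0.617). For KO over Flox at the exercise label 2 of 14 were above 0, against 48.8% of all genes. Both comparisons use Flox-Ex, and among the Flox libraries Flox-Ex 2 held the highest value of each of these genes except Cenpf. The signs are therefore not independent of each other, and the part of that library in them was not tested. For treatment in KO, which does not use Flox-Ex, 11 of 14 were above 0 (median 0.17), against 49.3% of all genes. For KO over Flox at the sedentary label 9 of 14 were above 0, against 50.0% of all genes. The 21 replication genes, whose activity clustered histone RNA usually accompanies, summed to 111 to 147 CPM, with the highest value also in Flox-Ex 2, where the summed clustered histone RNA (220 CPM) lay within the range of the other libraries.

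**Figure D5:**
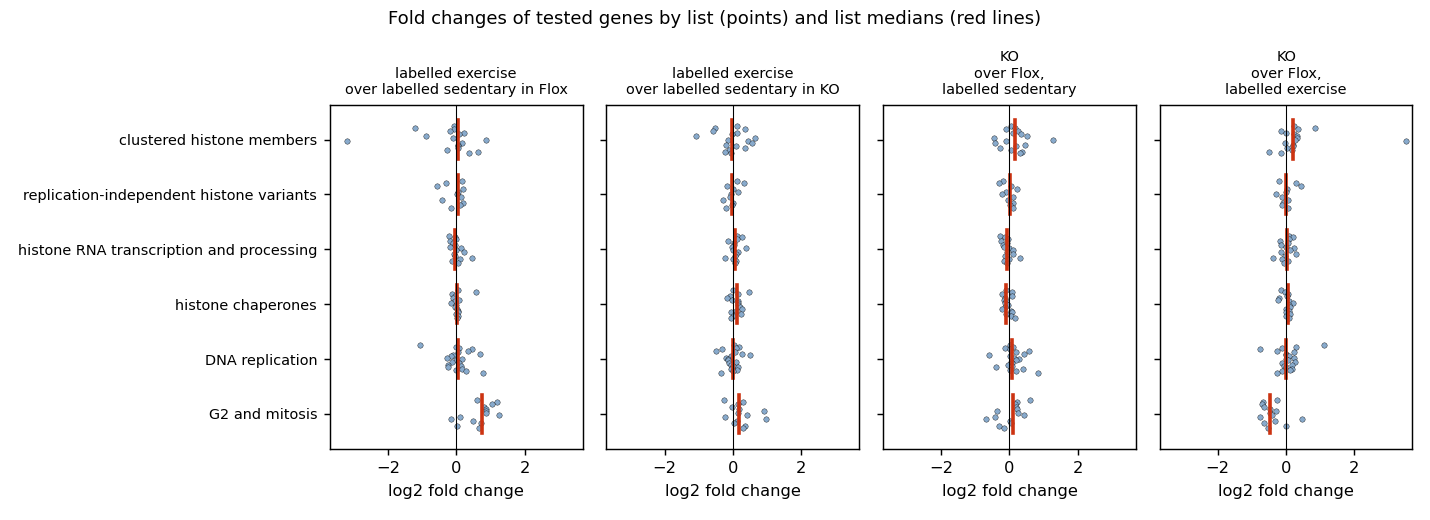
Log2 fold changes (x axis) of the tested genes of each list as points, with the list median as a red line, in the 4 pairwise comparisons. The medians of clustered histones lie between -0.02 and 0.22, and that of G2 and mitosis genes is 0.76 for treatment in Flox.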

How the data were processed

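The values deposited by the authors are estimated counts for each gene symbol with no scaling between libraries, and 13.9% to 18.5% of the values per library were more than 0.01 from a whole number. FastQC and Salmon were used per the submitters' processing notes, which also list mm9 and mm10 without saying what for; the sources used here give no annotation release, strand setting or step from transcripts to genes. Of 55874 rows, 1696 named vectors, adaptors or plasmids (at most 0.186% of counts per library), and these were dropped. Counts were rounded and tested with edgeR 4.0.16 (R 4.3.3) after filterByExpr by group, which kept 15226 genes, with TMM scaling, 1 mean per group in a fit of the 12 libraries together, robust glmQLFit, glmQLFTest and Benjamini-Hochberg adjustment over all genes at 0.05. SE is the log2 fold change over the root of F. CPM came from unrounded counts on TMM-scaled sizes. Tests were tried on simulated data first. Alternatives were DESeq2 1.42.0, its size factors, no filter, the replicate block, an atrial covariate, and each library left out.

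Sequence, positions and lengths came from GENCODE M21 on GRCm38, where all 22 member symbols were found; it may not be the release the submitters used. Shared words are 31-base words also present in other genes' transcripts. The chi-square per degree of freedom between replicates was 17.1 to 84.7, so none looked like 1 library entered again. Since the labels do not tie samples to animals, a p-value here measures only the spread between samples, which may be technical. Mitochondrial genes took 20.95% to 27.2% of counts. Members, lists and the rule for named genes were chosen with earlier results of these data known. The rule named the 3 most abundant members of each class, the 3 smallest p-values of each comparison, the 2 rows on each side of the limit, Cited4, and at most 3 examples per list. Slbp by treatment and Hist1h2bq with Hist1h2br were singled out after their values were seen. H3f3a, H3f3b, H1f0 and H2afz, the variants highest per kilobase, were also named outside the rule, as were testis histones and overlapping genes.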

Additional observations from a re-analysis of the deposited data

How the results depend on the processing

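Under 17 alternatives (12 of them leaving out 1 library) and 7 comparisons, edgeR or DESeq2 called 0 members in all 119 fits, and the smallest adjusted p of a member was 0.0841 (Hist1h4h, treatment in KO, without KO-Sed 1). Without that library edgeR called 566 of 15591 genes (3.63%) for this comparison and 479 (3.07%) for genotype at the sedentary label, against 3 and 19 of 15226 with it. For that comparison the log2 difference ran from 0.42 to 0.68 over the left-out libraries. Of 578 log2 differences over 34 results, 565 kept their sign, and no call changed. With the atrial covariate the sign turned for Hist2h2aa2 (0.065) and Hist3h2a (-0.020) in KO over Flox averaged over treatment, and for Hist2h2aa1 (-0.051) in treatment averaged over genotype. Leaving out single libraries turned the sign for KO over Flox of Hist3h2a (-0.0093 to 0.15) and Hist2h2aa1 (-0.031 to 0.33), and for treatment averaged over genotype of Hist1h1c (-0.041 to 0.10), Hist2h2aa1 (-0.15 to 0.25) and Hist1h2be (-0.033 to 0.13). On plain library totals the summed level of all members was 209 CPM in Flox-Ex and 229 in KO-Sed, where H1 was 83.4, H2A 49.3, H2B 79.5 and H4 14.1; for these the cause was not tested. The rule gave 33 members at a limit of 5 counts and 13 at a limit of 20. With the replicate number as a block 0 members were called in each comparison. No pairing by number was seen: 6 of 18 same-number pairs correlated above 0.1 (r from -0.32 to 0.31). In 11 of 36 pairings of a library with another group it correlated best with its own number. The labels give no pairing, and such correlations cannot exclude one. Below 1 CPM a member rests on some 20 counts a library or fewer, and intervals there span several-fold.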
